A study of Homo sapiens with 6 samples.

Results

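Metallothioneins and zinc transport were described by 9 genes: the metallothionein genes MT1X, MT2A, MT1E and MT1F, the zinc-sensing transcription factor gene MTF1, the zinc exporter genes SLC30A1 and SLC30A5, and the zinc importer genes SLC39A10 and SLC39A6. They were taken by symbol from the 33514 gene rows of the count tables, in which all 9 had a row. The cells were PC3, a human prostate cancer line derived from a bone metastasis, grown in RPMI medium with serum and antibiotics. Total RNA was sequenced in 3 groups of 2 libraries: untreated control cells, cells given 50 µM heme in the medium for 2 h, and cells given 50 µM heme for 4 h. All groups were the same line, and the labels name no vehicle for the controls. Nothing in the labels ties replicates to separate cultures, and the p-values therefore reflect library-to-library spread that may be technical.

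Metallothioneins are small cysteine-rich proteins that bind zinc and copper and buffer their free levels in the cell. MTF1 senses zinc and drives metallothionein genes and SLC30A1 through metal response elements, short DNA motifs in their promoters. ZnT proteins (the SLC30 family) move zinc out of the cytosol and ZIP proteins (the SLC39 family) move it in. Healthy prostate epithelium is known for its high zinc content, which is lower in prostate cancer.

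Depth was even, at 53129375 to 55537611 gene-assigned reads per library, with 2.33% to 2.73% of reads on mitochondrial messenger RNAs. HMOX1, the gene of the heme-degrading enzyme heme oxygenase 1, checked the treatment: it stood at 10.4 and 11.4 CPM (read counts scaled to a common library size with TMM factors) in the controls, 451 and 328 CPM at 2 h, and 382 and 341 CPM at 4 h. The epithelial markers KRT8, KRT18, EPCAM and CDH1 summed to between 1831 and 2046 CPM per library, and at 2 h EPCAM was lower (log2 -0.29, edgeR adjusted p = 0.0313) and CDH1 higher (log2 0.28, edgeR adjusted p = 0.0282). Of the prostate luminal markers, KLK3 had 0 counts in every library and KLK2 at most 1. The 4 fibroblast markers summed to 26.3 to 29.1 CPM in the controls, 41.5 to 48.4 CPM at 2 h and 25.3 to 32.4 CPM at 4 h, nearly all of it COL1A1, with at most 4 counts of COL1A2, COL3A1 or DCN in any library. The 3 leukocyte markers summed to 0.521 to 0.852 CPM in the controls. They summed to 1.98 to 2.63 CPM at 2 h and 0.813 to 1.05 CPM at 4 h. Most of it was CD14, with at most 5 counts of PTPRC or CD3E in any library. COL1A1 (log2 0.70, edgeR adjusted p = 0.0017) and CD14 (log2 1.87, edgeR adjusted p = 0.00135) were called higher at 2 h than in the controls. Neither was called at 4 h against control. The red cell markers HBB, HBA1 and HBA2 had 0 counts. The part of these markers in the zinc gene results was not tested.

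The 3 members that fell at 2 h are shown here by the 250 bases before their transcription start, because this is where metal response elements are known to act in such genes. Capitals mark the core of the metal response element on either strand, TGCACNC or TGCGCNC. Sequences are those of RefSeq on GRCh38.p14, written 5′ to 3′ on the gene's strand. MT2A lies at chr16:56608334-56608583 (plus strand), MT1X at chr16:56682220-56682469 (plus strand) and SLC30A1 at chr1:211579162-211579411 (minus strand).
MT2A: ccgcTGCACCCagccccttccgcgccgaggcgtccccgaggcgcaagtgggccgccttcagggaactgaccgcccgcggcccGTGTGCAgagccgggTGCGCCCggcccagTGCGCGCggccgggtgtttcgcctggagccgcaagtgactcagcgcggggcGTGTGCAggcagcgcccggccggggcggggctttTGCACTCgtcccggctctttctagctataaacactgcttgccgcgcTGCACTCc
MT1X: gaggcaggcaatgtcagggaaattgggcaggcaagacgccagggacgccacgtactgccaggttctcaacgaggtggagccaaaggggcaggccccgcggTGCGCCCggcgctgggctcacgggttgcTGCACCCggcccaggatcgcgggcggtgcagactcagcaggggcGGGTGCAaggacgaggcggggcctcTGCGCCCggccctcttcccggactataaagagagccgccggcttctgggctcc
SLC30A1: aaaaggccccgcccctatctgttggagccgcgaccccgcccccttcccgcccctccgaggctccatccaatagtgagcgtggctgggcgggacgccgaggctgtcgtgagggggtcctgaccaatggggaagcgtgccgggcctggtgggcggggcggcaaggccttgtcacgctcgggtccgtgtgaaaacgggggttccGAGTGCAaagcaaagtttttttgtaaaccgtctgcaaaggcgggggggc

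The metallothionein promoters were dense in this motif. MT2A held 7 matches to either form, a number reached by 0.0313% of the 35116 RefSeq promoters searched over the same 250 bases. MT1X held 4 matches, a number reached by 0.37% of them. SLC30A1 and SLC39A6 held 1 match each, and 24.8% of all promoters held at least 1. MTF1, SLC30A5 and both windows of SLC39A10 held 0. RefSeq promoters matched 7 of the 9 members, and MT1E and MT1F were not matched.

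A pair of other motifs was searched on both strands in the same windows. The core of the antioxidant response element, TGACNNNGC, which NRF2 and BACH1 are known to bind in HMOX1 and similar genes, had 1 match each in MT2A, MT1X, SLC30A1 and SLC30A5, and 10.9% of all promoters held at least 1. A G-quadruplex motif, which the series' title concerns, was defined as 4 runs of at least 3 guanines separated by 1 to 7 bases. Of the members, SLC30A1 alone held 1, on the strand opposite to the gene, and 23.5% of all promoters held at least 1. The matches are descriptions of sequence, and binding was not measured here. The GENCODE gene models, used for the gene coordinates, start downstream of the RefSeq start in SLC30A1 and upstream of it in the other 6 genes. In SLC39A10 the windows begin at positions 195656708 and 195656976 of chromosome 2, inside the GENCODE gene, which starts at 195575977, so that start was not searched.

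**Figure D1:**
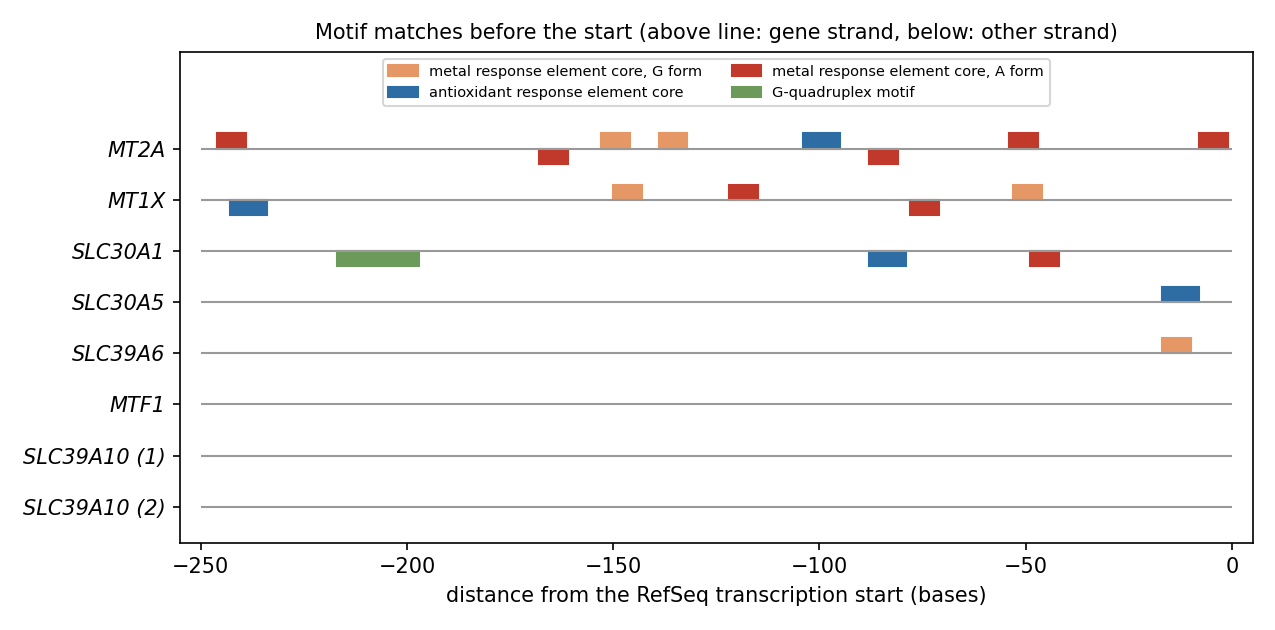
Motif matches in the 250 bases before the RefSeq transcription start of 7 members; the horizontal axis is the distance from the start in bases, SLC39A10 has 2 starts, and boxes above or below a line are on the gene's strand or the other strand. MT2A carries 7 metal response element cores and MT1X 4, against 1 in SLC30A1 and SLC39A6 and 0 in the other windows.

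After 2 h with heme 3 of the 8 tested members were lower than in the controls and 0 were higher. SLC30A1 fell 1.67-fold, MT1X 1.43-fold and MT2A 1.26-fold, while MT1F, MTF1, SLC30A5, SLC39A10 and SLC39A6 were not called (edgeR's quasi-likelihood test, Benjamini-Hochberg adjusted over 16209 genes). Of all genes tested, 31.7% were called at 2 h and 15.8% were called lower, so 3 of 8 stood near the share called in either direction and above the share called lower, a difference that was not tested. The median log2 fold change of the 8 members was -0.24, beside 0.017 over all genes tested. Both 2 h libraries lay below both controls in 5 members, MT2A, MT1X, MT1F, SLC30A1 and SLC39A6, as in 33.2% of all genes, and above both controls in 0, against 34.6% of all genes. MT1E had 0 counts in every library and was not tested.

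MT2A, the most abundant metallothionein RNA here, lies on chromosome 16 from 56608199 to 56609497 (ENSG00000125148.6, plus strand, protein coding, GENCODE 29 on GRCh38). It stood at 459.9 and 449 CPM in the controls, 364 and 358 CPM at 2 h, and 373 and 386 CPM at 4 h. All 4 heme libraries were below both controls, and replicates differed by little in each group. The fall at 2 h was -0.33 on the log2 scale (SE 0.09, n = 2 libraries per group, edgeR adjusted p = 0.00995). It was no longer called without control replicate 1 (edgeR adjusted p = 0.123) or without control replicate 2 (edgeR adjusted p = 0.0588), at log2 -0.32 and -0.37.

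MT1X, a second metallothionein of the same cluster, lies on chromosome 16 from 56682424 to 56684196 (ENSG00000187193.8, plus strand, protein coding). Its values were 89.0 and 103 CPM in the controls, 70.1 and 63.8 CPM at 2 h, and 66.2 and 83.1 CPM at 4 h. Again each heme library lay below both controls, with a wider spread between replicates than for MT2A. At 2 h the log2 change was -0.52 (SE 0.12, edgeR adjusted p = 0.00533), and without control replicate 2 it was -0.43 and not called (edgeR adjusted p = 0.0607). Of the 50-base stretches of its longest transcript, 14.7% also occur in transcripts of other genes, MT2A and MT1G among them, so reads could be shared between copies. Its exons also overlap those of AC026461.1 on the same strand. The share of such stretches was 4.7% for MT2A and 0.1% for MT1F.

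MT1F lies on chromosome 16 from 56657694 to 56660698 (ENSG00000198417.6, plus strand, protein coding) and was the scarcest of the tested metallothioneins. It had 17.1 and 18.1 CPM in the controls, 17.0 and 13.8 CPM at 2 h, and 12.8 and 14.2 CPM at 4 h. At 2 h replicate 1 was just below the controls and replicate 2 further below. The log2 change at 2 h was -0.19 (SE 0.14, edgeR adjusted p = 0.315). With a correction for GC content and transcript length it was -0.33 and called (edgeR adjusted p = 0.0159). It was -0.36 without 2 h replicate 1, -0.073 without 2 h replicate 2 and -0.13 with library totals, and not called in these 3 settings.

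MT1E (ENSG00000169715.14), on chromosome 16 from 56625475 to 56627112, was listed at 0 in all 6 libraries. A count of 0 allows up to 3 counts, or up to 0.0581 CPM in any library, and this limit covers counting error only. Since the annotation and strand setting of the counting are not known here, absent RNA and reads missed in counting cannot be told apart. Of the 50-base stretches of its longest transcript 10.6% occur in other genes, and no other GENCODE gene overlaps its exons. In the whole family of 12 metallothionein genes, 3 passed the filter on low counts. MT1B, MT1E, MT1HL1 and MT4 had 0 counts throughout, and MT1A, MT1G, MT1H, MT1M and MT3 had at most 8 counts in any library.

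Because near-identical copies can exchange reads, the 10 MT1 and MT2A genes were also summed into 1 row. Exchange with genes outside the sum is not covered. MT1P1, MT1XP1, MT2P1 and AC026461.1 share 50-base stretches with MT1X or MT2A and were left out, and 0 of 8 listed metallothionein pseudogenes had a row. The sum was 566 and 569.9 CPM in the controls, 451 and 436 CPM at 2 h, and 452 and 483 CPM at 4 h. It fell by 0.36 on the log2 scale at 2 h (SE 0.09, edgeR adjusted p = 0.00685), or 1.28-fold. Without control replicate 1 or 2 it was -0.37 in either case and not called (edgeR adjusted p = 0.0702 and 0.0552). MT2A made up between 78.7% and 82.5% of the sum in every library, MT1X between 14.6% and 18.1%, and MT1F between 2.83% and 3.77%.

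MTF1, the transcription factor that activates these genes when zinc is bound, lies on chromosome 1 from 37809567 to 37859620 (ENSG00000188786.9, minus strand). It stood at 36.6 and 38.2 CPM in the controls, 36.0 and 38.3 CPM at 2 h, and 37.7 and 37.1 CPM at 4 h. The 3 groups overlapped. The log2 change was -0.0097 at 2 h (SE 0.11, edgeR adjusted p = 0.957), with a 95% interval from -0.25 to 0.23. At 4 h it was 0.0011, with an interval from -0.23 to 0.24.

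SLC30A1 (ZnT1), a zinc exporter of the plasma membrane and known MTF1 target, had the largest 2 h change of the members in the reported fit. It lies on chromosome 1 from 211571568 to 211578742 (ENSG00000170385.9, minus strand). Its values were 239.9 and 224 CPM in the controls, 116 and 161 CPM at 2 h, and 197 and 175 CPM at 4 h. Both 2 h libraries lay below all others, both 4 h libraries lay between them and the controls, and 2 h replicate 1 was lower than 2 h replicate 2. The fall at 2 h was -0.74 on the log2 scale (SE 0.13, edgeR adjusted p = 7.83e-04), and 4.19% of all genes tested had a change as low or lower. It was called under all 14 alternative settings, with log2 values from -1.02 to -0.53. The highest and the lowest of these came from leaving out 2 h replicate 1 and 2 h replicate 2. With the GC and length correction SLC30A1 was -0.54 and MT1X -0.58. Without 2 h replicate 1 they were -0.53 and -0.59, so SLC30A1 did not have the largest change in these settings.

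SLC30A5 (ZnT5), which loads zinc into the secretory pathway, lies on chromosome 5 from 69093646 to 69131069 (ENSG00000145740.18, plus strand). It had 76.8 and 76.5 CPM in the controls, 69.0 and 77.2 CPM at 2 h, and 82.4 and 77.0 CPM at 4 h. The 2 h libraries lay on both sides of the controls. The log2 change at 2 h was -0.067 (SE 0.10, edgeR adjusted p = 0.652, 95% interval -0.28 to 0.15), and its sign was the opposite with library totals, with the GC and length correction and without 2 h replicate 1. An antisense gene, AC010273.1, overlaps its exons and had 7 to 12 counts per library.

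The ZIP members were not called at 2 h. SLC39A6 (ZIP6), a plasma membrane importer on chromosome 18 from 36108532 to 36129385 (ENSG00000141424.12, minus strand), had 52.8 and 48.9 CPM in the controls. It had 38.8 and 45.2 CPM at 2 h and 62.5 and 50.6 CPM at 4 h. Both 2 h libraries lay below both controls, while those of 4 h overlapped the controls. Its log2 change at 2 h was -0.28 (SE 0.13, edgeR adjusted p = 0.107), and -0.41 and called without 2 h replicate 2 (edgeR adjusted p = 0.0174). It was -0.17 without 2 h replicate 1 (edgeR adjusted p = 0.359) and -0.11 with the GC and length correction (edgeR adjusted p = 0.297).

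SLC39A10 (ZIP10), an importer that MTF1 is known to repress, lies on chromosome 2 from 195575977 to 195737702 (ENSG00000196950.13, plus strand). It had 44.6 and 45.7 CPM in the controls, 43.8 and 53.1 CPM at 2 h, and 50.0 and 48.1 CPM at 4 h. The 2 h replicates lay on both sides of the controls, and both 4 h libraries lay above them. At 2 h the log2 change was 0.10 (SE 0.12, edgeR adjusted p = 0.548, 95% interval -0.15 to 0.35). With the GC and length correction it was 0.30 and called (edgeR adjusted p = 0.00689), and without 2 h replicate 2 it was -0.068. It was 0.23 without 2 h replicate 1 and 0.17 with library totals, and not called in either.

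**Figure D2:**
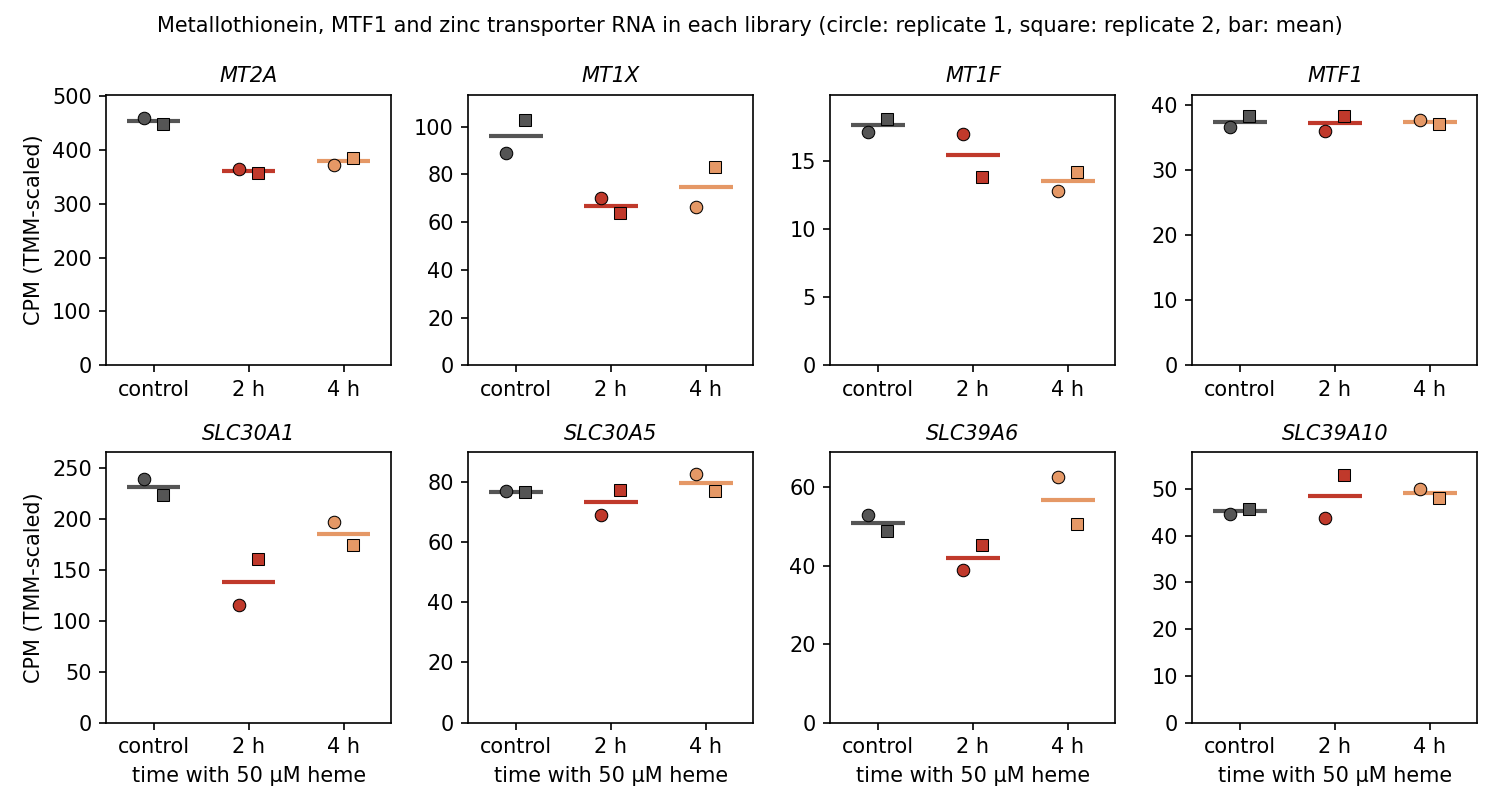
CPM (TMM-scaled, linear axes from 0) of the 8 tested members in each of the 6 libraries, by time with 50 µM heme; points are libraries and bars are group means. In MT2A, MT1X, MT1F and SLC30A1 every heme library lies below both controls, in MT1F only just for 2 h replicate 1. In MTF1 the groups overlap.

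At 4 h no member was called against control by edgeR or by DESeq2, in a comparison in which edgeR called 0.0308% of all genes (0.00617% lower, 0.0247% higher). Without adjustment 4 of the 8 had an edgeR p under 0.05, all of them lower: MT1X, MT2A, MT1F and SLC30A1. DESeq2 also gave 4, and 3.6% of all genes tested had an unadjusted edgeR p under 0.05. The log2 values were -0.36 for MT1X (SE 0.12), -0.26 for MT2A (SE 0.09), -0.38 for MT1F (SE 0.14) and -0.32 for SLC30A1 (SE 0.13), with edgeR adjusted p = 0.99995 for each. Without 4 h replicate 1, MT1X was -0.21. In these 4 genes both 4 h libraries lay below both controls, as 17.4% of all genes did. SLC30A5 and SLC39A10 had both 4 h libraries above both controls, as 17.0% of all genes did, at log2 0.057 and 0.12. The summed metallothioneins stood at log2 -0.28 (SE 0.09, edgeR adjusted p = 0.99992). Both comparisons use the same 2 control libraries, so their values are not independent.

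Between 2 h and 4 h, SLC30A1 and SLC39A6 rose and 0 of the 8 members fell, beside 28.1% of all genes called in either direction, 14.0% called higher and 14.1% lower. Both 4 h libraries lay above both 2 h libraries in 3 members, MT2A, SLC30A1 and SLC39A6, as in 29.6% of all genes, and below them in 0, against 32.7%. SLC30A1 was 0.42 higher on the log2 scale at 4 h (SE 0.13, edgeR adjusted p = 0.0257), from 139 ± 32.1 to 186 ± 15.8 CPM (SD, n = 2). SLC39A6 was 0.43 higher (SE 0.13, edgeR adjusted p = 0.0197), from 42.0 ± 4.49 to 56.6 ± 8.43 CPM (SD, n = 2). Both calls were lost on leaving out a single library. This comparison shares its 2 h libraries with the comparison of 2 h against control. Without 2 h replicate 1 the adjusted p was 0.189 for SLC30A1 (log2 0.21) and 0.0771 for SLC39A6 (log2 0.33) by edgeR. Without 4 h replicate 1 it was 0.211 (log2 0.34) and 0.226 (log2 0.27). The SLC30A1 call was also lost when library totals replaced TMM (edgeR adjusted p = 0.0579, log2 0.35).

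For the metallothioneins the step from 2 h to 4 h was not called in the reported fit. It was 0.16 for MT1X (95% interval -0.10 to 0.42), 0.070 for MT2A (95% interval -0.11 to 0.25) and -0.19 for MT1F (95% interval -0.49 to 0.11) on the log2 scale. With the GC and length correction and the replicate number as a block, MT1X was 0.23 and MT2A 0.18 higher at 4 h, and both were called (edgeR adjusted p = 0.0276 and 0.0442). With library totals in place of TMM they were 0.094 and 0.0053 (edgeR adjusted p = 0.62 and 0.971). MT1X was 0.32 without 4 h replicate 1 and 0.0089 without 4 h replicate 2, and MT1F was -0.027 without 2 h replicate 1 and -0.31 without 2 h replicate 2, none of them called. MTF1, SLC30A5 and SLC39A10 stood at 0.011, 0.12 and 0.020. Whether SLC30A1 and the metallothioneins differed from each other in this step was not tested.

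**Figure D3:**
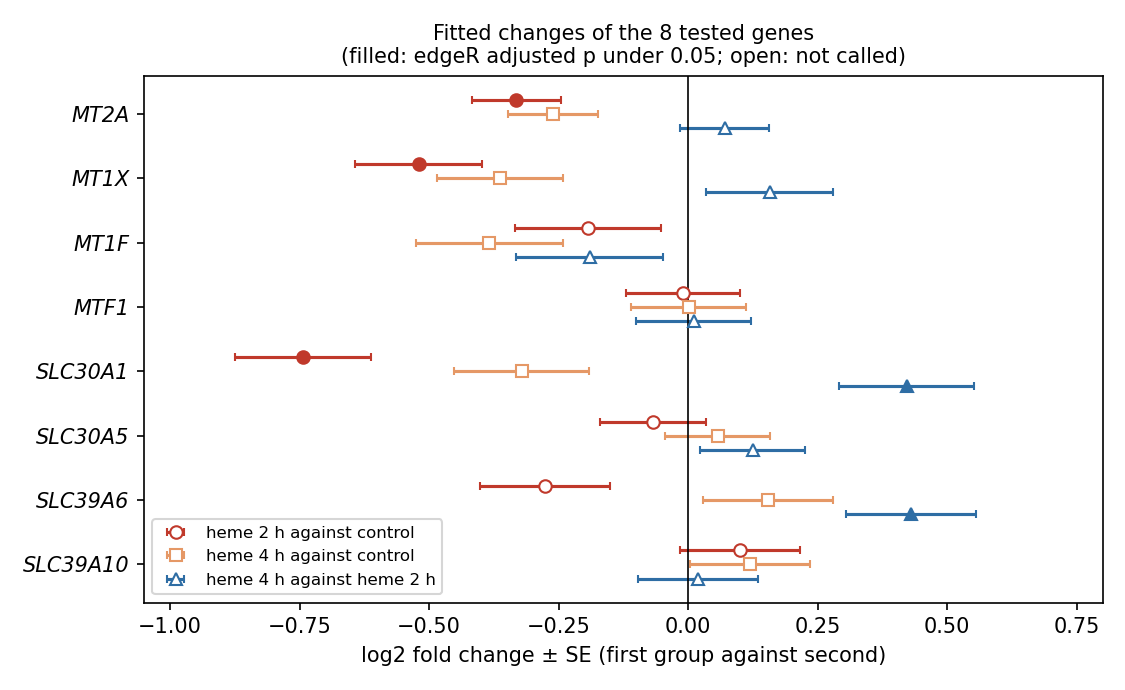
Fitted log2 fold changes of the 8 tested members with their standard error in 3 comparisons; filled symbols are called and open ones are not (edgeR adjusted p under 0.05, n = 2 libraries per group). MT1X, MT2A and SLC30A1 are called lower at 2 h, none at 4 h against control, and SLC30A1 and SLC39A6 are called higher at 4 h than at 2 h.

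Levels of different genes were compared per kilobase of annotated exon (CPM per kb) in the controls. MT2A was highest at 350 ± 6.07, followed by MT1X at 54.1 ± 5.55 and SLC30A1 at 42.4 ± 2.02 (SD, n = 2). SLC39A6 at 13.8 ± 0.757 and SLC30A5 at 13.2 ± 0.0396 differed by less than the SD of SLC39A6. MT1F at 9.32 ± 0.366, SLC39A10 at 6.53 ± 0.107 and MTF1 at 4.66 ± 0.143 came next, and MT1E was listed at 0. At 2 h MT2A stood at 278 ± 3.22 and SLC30A1 at 25.3 ± 5.87, so MT2A remained the highest of the 9. The exon length counts all annotated isoforms, which understates the level of a gene whose long isoforms are not used.

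The wider families were counted from lists of genes by function. Of 10 ZnT genes 7 were tested, of which SLC30A1 and SLC30A7 fell at 2 h and 0 rose, beside 31.7% of all genes called in either direction and 15.8% called lower, with a list median log2 change of -0.15 beside 0.017 over all genes. SLC30A7 (ZnT7), a transporter of the Golgi, had 72.9 and 77.4 CPM in the controls, 49.1 and 61.3 CPM at 2 h, and 75.0 and 71.2 CPM at 4 h. Both 2 h libraries lay below all others, at log2 -0.44 (SE 0.12, edgeR adjusted p = 0.0099). The call was lost without control replicate 2 (edgeR adjusted p = 0.0703) and without 2 h replicate 1 (edgeR adjusted p = 0.0606), at log2 -0.42 and -0.30. With the GC and length correction it was -0.25 and called. From 2 h to 4 h SLC30A7 rose by 0.41 (SE 0.12, edgeR adjusted p = 0.0177), a call lost without 2 h replicate 1 (edgeR adjusted p = 0.11, log2 0.26) or 4 h replicate 1 (edgeR adjusted p = 0.117, log2 0.37). The untested ZnT genes SLC30A2, SLC30A8 and SLC30A10 had at most 2 counts in any library.

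Of 14 ZIP genes 11 were tested, and 0 were called at 2 h by edgeR or DESeq2. Of all 16209 genes tested, edgeR called 31.7% and DESeq2 called 5080 genes, and the difference in share was not tested. The ZIP log2 values lay between -0.28 and 0.25, with a median of 0.048. Unadjusted edgeR p-values under 0.05 were found for 3 of the 11, beside 42.6% of all genes. They are named here after their values were seen: SLC39A6, SLC39A4 (log2 -0.24, SE 0.10) and SLC39A7, which releases zinc from the endoplasmic reticulum (log2 0.25, SE 0.11). SLC39A7 had 228 and 238 CPM in the controls, and 314 and 241 CPM at 2 h. Its 2 h replicates thus differed from each other by more than replicate 2 differed from the controls.

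Genes described as MTF1 targets, apart from the metallothioneins, included 3 called at 2 h: of 8 tested, SLC30A1 fell, GCLC and PGF rose, and 5 were not called, SLC39A10 among them. The share is near the 31.7% of all genes called in either direction (15.8% lower, 15.9% higher). The list holds 9 genes, of which 1 was not tested. The median log2 change of the 8 tested was 0.052. It pools genes that MTF1 is described to activate with SLC39A10, which it is known to repress, so it has no single direction to be read against. GCLC, a subunit of the rate-limiting enzyme of glutathione synthesis and also a known NRF2 target, had 113 and 101 CPM in the controls and 157 and 151 CPM at 2 h. Its 2 h libraries lay above both controls, at log2 0.52 (SE 0.10, edgeR adjusted p = 0.00175), and without control replicate 2 it was 0.42 and not called (edgeR adjusted p = 0.0563). PGF, a placental growth factor gene, had 0.829 and 0.704 CPM in the controls and 2.08 and 1.74 CPM at 2 h. It rose by 1.31 (SE 0.30, edgeR adjusted p = 0.00458) on 38 to 118 counts in each control and 2 h library. By 4 h PGF was lower than at 2 h, at log2 -1.17 (SE 0.30, edgeR adjusted p = 0.00942), a call lost without 4 h replicate 1 (edgeR adjusted p = 0.096, log2 -0.96).

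Copper handling genes, whose metal metallothioneins also bind, had 5 of 12 members lower and 1 higher at 2 h, beside 15.8% and 15.9% of all genes, and a median log2 change of -0.26. ATP7A, the copper exporter mutated in Menkes disease, had 7.12 and 6.36 CPM in the controls and 10.3 and 11.9 CPM at 2 h. Both 2 h libraries were above both controls, at log2 0.72 (SE 0.15, edgeR adjusted p = 0.00298). SOD1, the copper and zinc superoxide dismutase, fell from 218 and 221 CPM to 163 and 168 CPM (log2 -0.41, SE 0.10, edgeR adjusted p = 0.00533). From 2 h to 4 h 2 copper genes were called higher and 1 lower, beside 14.0% and 14.1% of all genes. ATP7A fell in this step (log2 -0.54, SE 0.15, edgeR adjusted p = 0.0165), a call kept in 11 of 14 alternatives. SOD1 rose (log2 0.27, SE 0.10, edgeR adjusted p = 0.0472), a call kept in 7 of 14.

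The other copper genes that fell were the chaperones COX17 (log2 -0.37), COX11 (log2 -0.37) and ATOX1 (log2 -0.29), and COMMD1 (log2 -0.37), with edgeR adjusted p between 0.0269 and 0.0373. None of these 4 was called without control replicate 1 or without control replicate 2, at log2 values from -0.43 to -0.26, or with library totals in place of TMM (edgeR adjusted p = 0.0634 to 0.109). COX11 was also lost without 2 h replicate 1 (log2 -0.23, edgeR adjusted p = 0.166) and was -0.56 without 2 h replicate 2. COMMD1 was also lost without 2 h replicate 2 (log2 -0.28, edgeR adjusted p = 0.0973), and ATOX1 with the replicate block (edgeR adjusted p = 0.0678). COX17 was -0.24 and called with the GC and length correction. ATP7A was not called without control replicate 2 (edgeR adjusted p = 0.0545, log2 0.62), and SOD1 was called at 2 h under all 14 alternatives. At 4 h against control 0 members of the ZnT, ZIP, MTF1 target and copper lists were called by edgeR or DESeq2. Of all genes, edgeR called 0.0308% in this comparison. Unadjusted edgeR p-values under 0.05 at 4 h were found for 1 of 7 ZnT and 0 of 11 ZIP genes. They were found for 2 of 8 MTF1 target and 0 of 12 copper genes, beside 3.6% of all genes. The ZnT gene, SLC30A1, was also 1 of the 2 MTF1 targets, with GCLC.

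**Figure D4:**
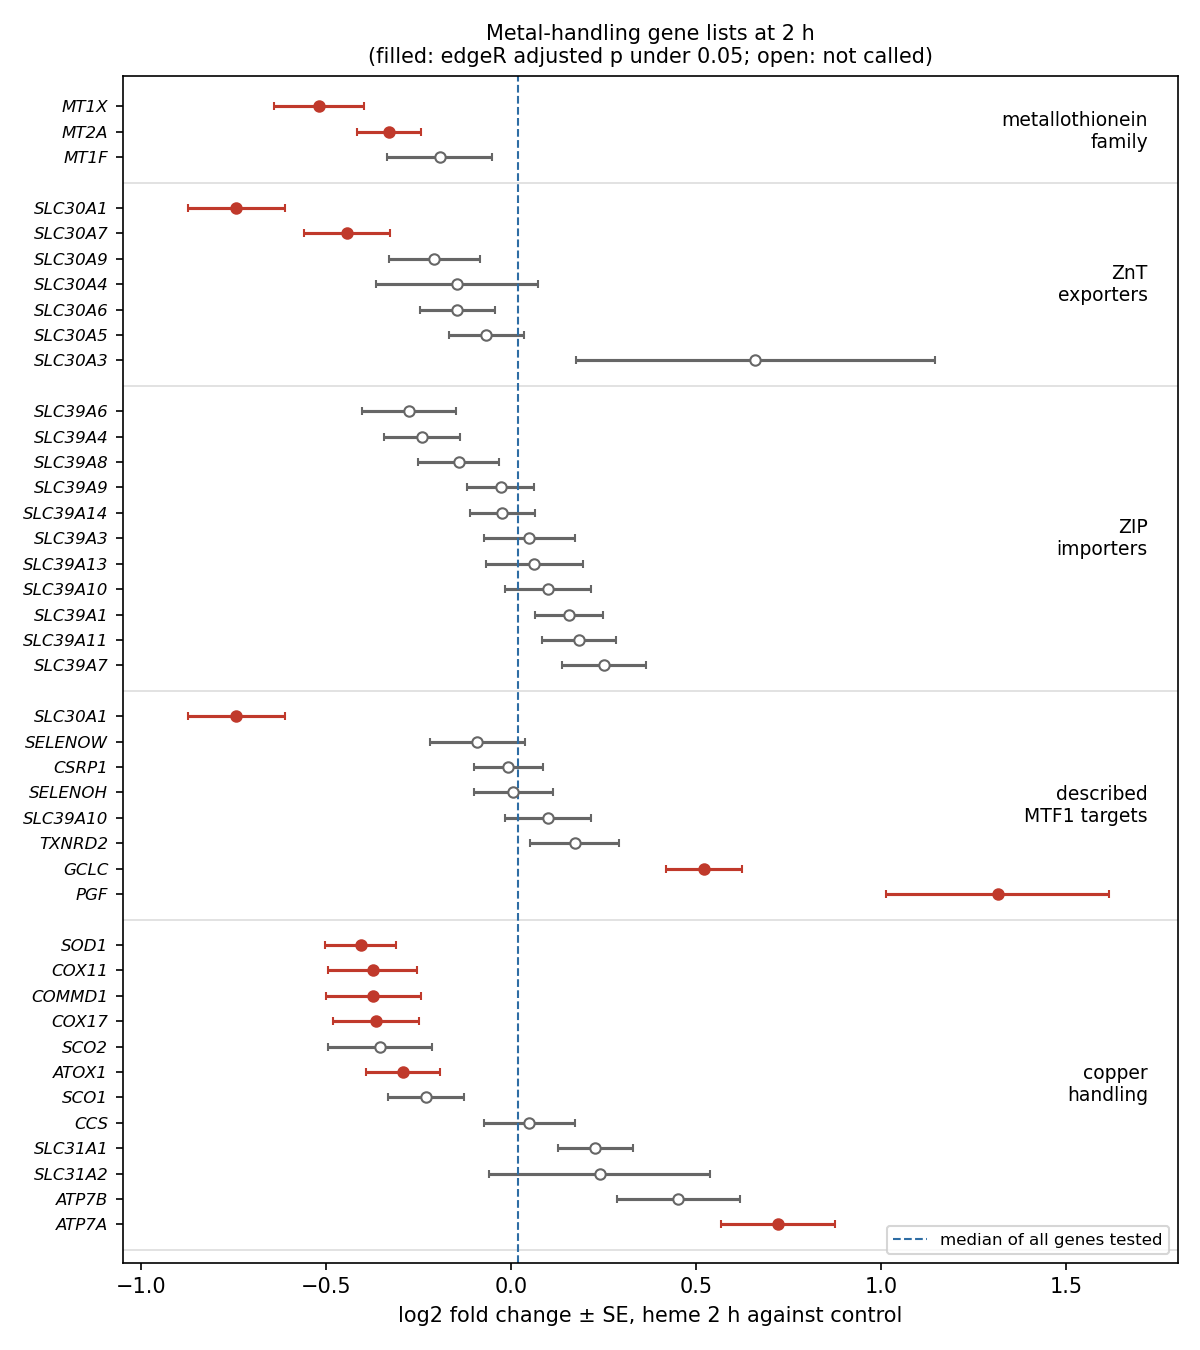
Fitted log2 fold changes with standard errors at 2 h against control for the tested genes of 5 metal-handling lists; filled symbols are called (edgeR adjusted p under 0.05) and the dashed line is the median of all genes tested. SLC30A1 appears in the ZnT and MTF1 target lists, and 0 of 11 ZIP genes are called, beside 31.7% of all genes tested.

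For 3 members, the genes with the most similar pattern over the 6 libraries were found among 11930 other genes with a mean of at least 2 CPM. The measure was the root mean square difference of log2 CPM, each gene centred on its own control mean, so genes of similar size of change score best. Nearest to MT2A were HEG1 (0.025), PPIL3 (0.046), CD59 (0.049), NDUFA1 (0.056) and EFCAB11 (0.058), beside a median of 0.27 over all candidates. Nearest to SLC30A1 were SERPINB7 (0.036), TRA2A (0.060), CXCL3 (0.071), CDK1 (0.081) and NFYB (0.083), beside a median of 0.49. Nearest to SLC39A10 were GULP1 (0.034), KLF5 (0.035), TENT2 (0.042), FBXW11 (0.047) and HACD2 (0.048), beside a median of 0.24.

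No other member was among these neighbours. From MT2A, MT1F stood at 0.14 (rank 668) and MT1X at 0.17 (rank 1556), and SLC30A1 at 0.30 (rank 6666). From SLC30A1, MT1X stood at 0.28 (rank 1455). From SLC39A10, MTF1 stood at 0.11 (rank 379) and SLC30A5 at 0.11 (rank 407). The distances describe these 6 libraries, which the genes share, and carry no test.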

How the data were processed

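RNA of 6 PC3 libraries was measured by RNA sequencing (Trizol extraction, Illumina TruSeq kit, per the labels' protocols). The authors deposited whole-number counts of reads for each gene symbol, in HTSeq layout. Trimmomatic, STAR, SAMtools, deepTools and hg38 were used, per the submitters' processing notes; versions, annotation and strand setting were not given in those notes, so overlapping and antisense genes cannot be told apart. The 5 summary lines stayed out (reads outside genes 5.48% to 6.88%, ambiguous 4.23% to 4.48%), and reads with several alignments were listed at 0.

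Genes were tested with edgeR 4.0.16 in R 4.3.3: filterByExpr (minimum count 10; 16209 genes), TMM, quasi-likelihood test, all 6 libraries in 1 fit, two-sided, Benjamini-Hochberg adjusted p under 0.05. Each SE was the log2 change over the root of F. Alternatives were DESeq2 1.42.0, RLE scaling, library totals, no filter, a replicate block, the compared groups alone, a GC and length correction (MT2A's values for the summed metallothioneins; with and without the block) and leaving out each library. Simulated counts of 16209 genes were run for the 2 h comparison. Among genes of at least 2 CPM, 71.6% of 67 genes changed 1.5-fold and 100% of 67 changed 2-fold were recovered. In the simulation 16009 genes were unchanged, while 31.7% of genes were called in the data at 2 h. The adjustment is stricter where fewer genes change, so this recovery does not describe the 2 h fit.

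The members and lists were chosen with earlier results of these data known. Named were all members; in each list the genes called against control, at most 6 by smallest p; HMOX1; and the 5 nearest patterns of 3 members. Coordinates are from GENCODE 29, promoters from RefSeq.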

Additional observations from a re-analysis of the deposited data

Results flagged for a closer look

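Heme changes at 2 h and at 4 h were compared directly by the contrast of 4 h against 2 h, and differed for 2 members. SLC30A1 was at log2 -0.74 at 2 h and -0.32 at 4 h against control, a difference of 0.42 (SE 0.13, edgeR adjusted p = 0.0257, higher in 2 of 2 libraries at 4 h). SLC39A6 was at log2 -0.28 and 0.15, a difference of 0.43 (SE 0.13, edgeR adjusted p = 0.0197, higher in 2 of 2 libraries at 4 h). Neither difference was called without 2 h replicate 1 (edgeR adjusted p = 0.189 and 0.0771) or without 4 h replicate 1 (edgeR adjusted p = 0.211 and 0.226).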

How the results depend on the processing

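At 2 h, 3 members were called under DESeq2, RLE scaling, library totals, no filter, the replicate block and the compared groups alone. With the GC and length correction there were 5, also together with the replicate block. Of these 4 were lower (MT1X, MT2A, MT1F and SLC30A1) and 1 was higher (SLC39A10). Leaving out 1 library, SLC30A1 ran from log2 -1.02 to -0.53, MT1X from -0.63 to -0.43 and MT2A from -0.37 to -0.32. From 2 h to 4 h the count was 1 with library totals, 4 with the GC and length correction and replicate block (MT1X, MT2A, SLC30A1 and SLC39A6), and 0 to 2 leaving out 1 library, beside 2 in the reported fit. At 4 h against control it was 0 under all 14 alternatives run. DESeq2 called 5080 of all genes at 2 h, 13 at 4 h and 4620 from 2 h to 4 h. For the other alternatives the share of all genes called was not worked out, so these member counts have no background beside them. The summed metallothioneins at 2 h ranged from log2 -0.39 to -0.35 leaving out 1 library. In simulated counts for the 2 h comparison 71.6% of genes changed 1.5-fold were recovered, and smaller changes were not simulated. Far fewer genes were changed there than were called in the data, so this share does not carry over to the data.

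Small uncalled changes reversed sign. With library totals MTF1 was 0.060 at 2 h and -0.055 from 2 h to 4 h, SLC30A5 0.0028 at 2 h and SLC39A10 -0.047 from 2 h to 4 h. With the GC and length correction SLC30A5 was 0.10 at 2 h and -0.0046 from 2 h to 4 h, and SLC39A10 -0.13 from 2 h to 4 h; with the replicate block added they were 0.10, -0.0047 and -0.13. Leaving out 1 library, MTF1 ran from -0.078 to 0.032 at 2 h, -0.029 to 0.035 at 4 h and -0.030 to 0.081 from 2 h to 4 h. SLC30A5 ran from -0.17 to 0.0077 at 2 h, SLC39A10 from -0.068 to 0.23 at 2 h and -0.11 to 0.19 from 2 h to 4 h, and SLC39A6 from -0.0078 to 0.30 at 4 h. The cause was not tested.

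The labels give groups the same replicate numbers but no shared culture or day, and deviations of same-numbered libraries correlated at -0.091, 0.065 and -0.016 across 16209 genes. With the replicate block the counts of called members were 3 at 2 h, 0 at 4 h and 2 from 2 h to 4 h, as without it. Of the other genes named, the replicate block ended the calls of ATOX1 at 2 h (edgeR adjusted p = 0.0678) and SOD1 from 2 h to 4 h (edgeR adjusted p = 0.0692).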
